A study of Rattus norvegicus with 18 samples.

Results

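The genes described here are 10 genes of the oxidative stress and NRF2 response, measured in a rat hippocampal RNA-Seq experiment: Nfe2l1, Nfe2l2, Keap1, Nqo1, Hmox1, Gclc, Gclm, Txnrd1, Sod1 and Sod2. They are 10 of 38445 genes listed for each rat and 10 of the 17853 genes with enough reads to be tested. They were chosen by symbol, with no measured value in the rule, but with earlier results of these data known. RNA-Seq was performed on the dorsal hippocampus of 18 adult male wild-type Sprague Dawley rats, each a separate animal, with 6 rats in each of 3 groups. Control rats received a Lieber-DeCarli control liquid diet, which replaces both chow and drinking water. Ethanol rats received the same type of diet with 9% (v/v) ethanol for 15 or 16 days and were collected without withdrawal (0 h). Withdrawal rats received the ethanol diet and were then returned to control diet for 24 h. The ethanol diet is a model of forced dietary intake in male rats only, so that the findings concern neither voluntary drinking nor females.

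NRF2, encoded by Nfe2l2, is the transcription factor that turns on genes for detoxification and antioxidant defence. In unstressed cells KEAP1 binds NRF2 and hands it to a ubiquitin ligase for destruction. Oxidants and reactive aldehydes modify cysteines of KEAP1, and NRF2 then accumulates and binds, with a small MAF protein, to antioxidant response elements in the promoters of its target genes. The regulation of NRF2 is thus mostly at the level of the protein, which RNA-Seq does not measure. Ethanol is oxidized in the brain in part by catalase and cytochrome P450 enzymes, and acetaldehyde and reactive oxygen are among the products. NRF1, encoded by Nfe2l1, is a related factor held in the endoplasmic reticulum that is best known for turning on proteasome genes.

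The antioxidant response element has the core TGACNNNGC, and the promoters were searched for it on both strands. RefSeq promoters of assembly GRCr8, each from 250 bases before to 50 bases after a gene's start, were at hand for 9 of the 10 genes, 12 promoters in all, Hmox1 being the gene without one. The core was present in 4 of the 12 promoters, which belonged to Nfe2l2, Gclm, Txnrd1 and Sod2, and in 12.1% of all 33469 promoters of this length. In Nfe2l2 it lay after the start, at bases 39 to 47. The 3 cores before a start are shown with up to 30 bases on either side, because the core is the sequence that NRF2 with a small MAF protein is known to bind, and a match of letters is not by itself a bound site. Each is written 5′ to 3′ on the strand of the gene, and the capitals mark the core, which lies on the opposite strand in all 3.
Gclm, chr2:213031933-213032001, plus strand: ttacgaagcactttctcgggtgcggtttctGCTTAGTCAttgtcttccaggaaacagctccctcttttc
Txnrd1, chr7:22755944-22756012, minus strand: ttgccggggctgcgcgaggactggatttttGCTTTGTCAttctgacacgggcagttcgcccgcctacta
Sod2, chr1:50050169-50050233, minus strand: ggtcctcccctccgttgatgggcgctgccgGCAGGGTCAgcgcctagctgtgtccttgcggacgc
The cores began 172 bases before the start in Gclm, 78 in one of the 2 promoters of Txnrd1, and 35 in Sod2. No core was found in these windows of Nfe2l1, Keap1, Nqo1, Gclc or Sod1, which says only that these letters are not in the bases searched.

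Read pairs on genes numbered between 30873228 and 42679748 per rat, with a median of 36302755. Levels are given as CPM, the counts scaled to library size, after TMM normalization, and a gene is called DE at q < 0.1 by limma-voom in one model of all 18 rats with 3 surrogate variables, which are unnamed sources of variation estimated from the data. Neurons, hippocampus, astrocytes, oligodendrocytes, microglia and blood vessels were all represented by marker genes in every rat. Of the hippocampus markers, Lct was nearly absent (median 0.05 CPM) and not tested, and Zbtb20 was low (1.72 to 9.36 CPM). Withdrawal rat 5 stood apart, since its summed level of 6 hippocampus markers was 238 CPM against 414 to 916 CPM in the other 17 rats. Withdrawal rats 4 and 5 had 31.8 and 31.7 CPM of 6 choroid plexus markers, and the other 16 rats had 1076 to 5302 CPM. Ethanol rat 1 had 1264 CPM of 5 thalamus markers against 209 to 740 CPM in the other 17 rats, and the lowest sum of 6 neuron markers (3802 CPM). The 4 red blood cell markers tested were decreased in ethanol and in withdrawal rats relative to control rats (q < 0.1, limma-voom). The libraries carried 3 sets of index sequences: all 6 control rats had the first, the 6 ethanol rats and withdrawal rats 1 and 2 the second, and withdrawal rats 3 to 6 the third. No control rat shared its set with another group, so that a difference from control cannot be told apart from a difference between index sets.

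Per length of transcript, the 10 genes spanned a wide range in control rats. RPKM, which is CPM divided by exon length in kilobases, was highest for Sod1 (193 ± 14.5, SD, n = 6) and lowest for Hmox1 (3.16 ± 0.303). Sod1 and Sod2 encode the cytosolic and the mitochondrial superoxide dismutase, and Sod2 came second with 76.6 ± 4.12 RPKM. Nfe2l1 followed with 48.5 ± 1.75 RPKM, above its relative Nfe2l2 with 11.2 ± 0.727 RPKM. Gclc (23.9 ± 1.14 RPKM) and Gclm (17.2 ± 1.01 RPKM) encode the catalytic and the modifier subunit of glutamate-cysteine ligase, the first enzyme of glutathione synthesis. Txnrd1, the cytosolic thioredoxin reductase, had 20.9 ± 0.84 RPKM and Keap1 had 17.4 ± 1.2 RPKM. Nqo1, a quinone reductase used as a standard readout of NRF2 activity, had 6.92 ± 0.222 RPKM. Keap1 and Gclm were the only neighbours in this order whose control values overlapped. Keap1 was the higher of that pair in 10 of the 18 rats, whereas the other orders between neighbours held in 16 or 18 of the 18 rats.

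**Figure D1:**
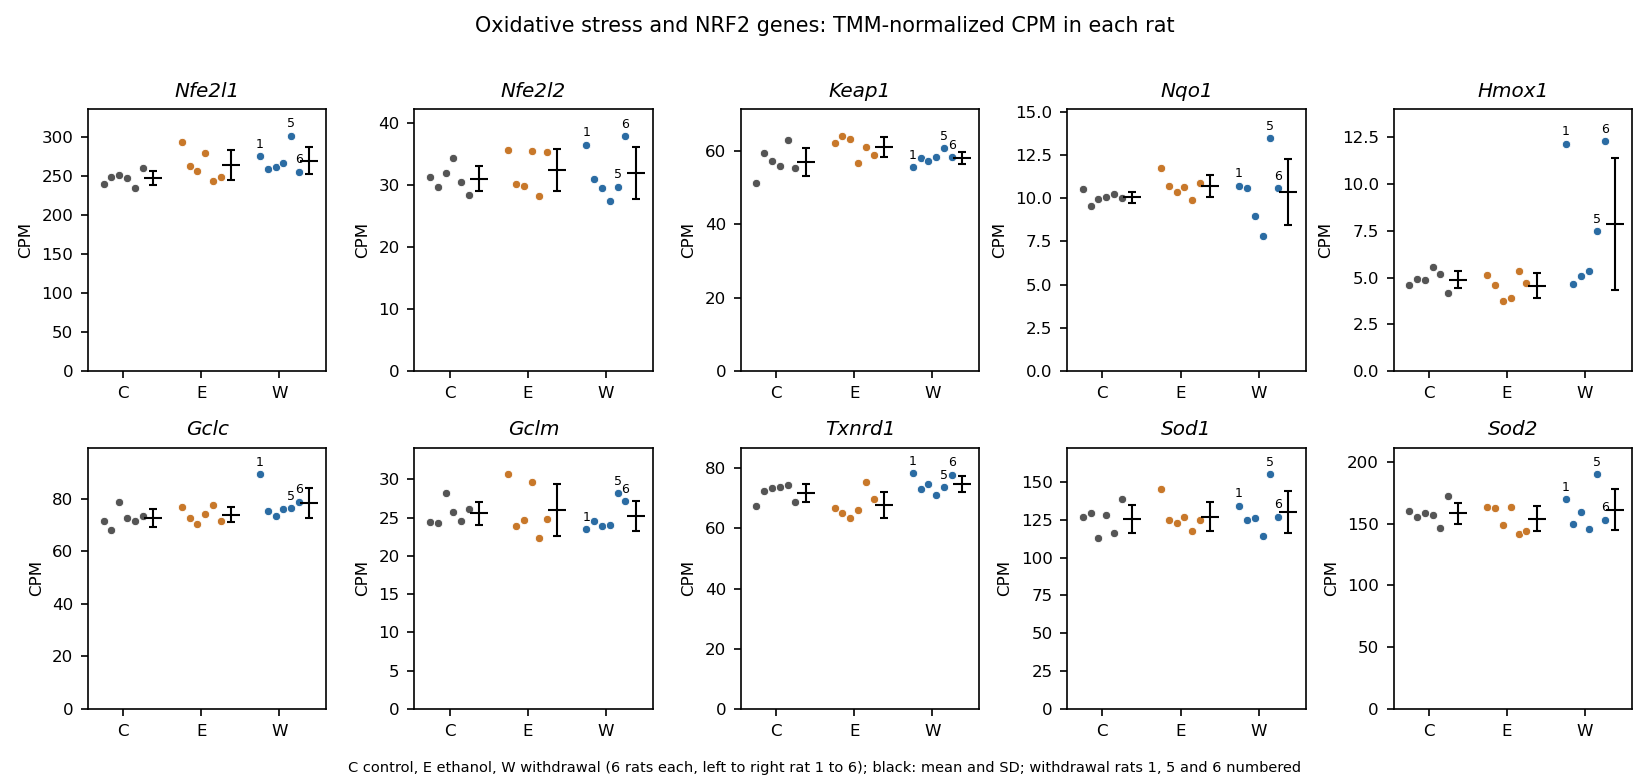
CPM (vertical axes, from 0) of the 10 genes in each rat, with control, ethanol and withdrawal rats as grey, orange and blue points and the group mean and SD in black. Hmox1 shows withdrawal rats 1, 5 and 6 above all control and ethanol rats, while the groups of every gene overlap.

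The comparison of withdrawal with control asks which genes differed after 24 h without ethanol. Of the 10 genes, 1 was DE, Nfe2l1, which was increased in withdrawal (limma-voom). Of all genes tested, 5.41% were DE in this comparison, 2.87% increased and 2.54% decreased. The fitted log2 fold change was above 0 for 9 of the 10 genes, with a median of 0.06, compared with a median of 0.00 over all genes tested. At an unadjusted p under 0.05 there were 3 of the 10, Nfe2l1, Hmox1 and Gclc, against 19.8% of all genes. Without surrogate variables limma-voom and edgeR called 0 of the 10, each with 3 at an unadjusted p under 0.05, compared with 0.23% and 0.185% of all genes called, and DESeq2 called 1, Hmox1, compared with 2.54% of the genes to which it gave a q. The size of the changes was small, with a median absolute log2 fold change of 0.06 for the 10 genes and 0.09 for all genes. For none of the 10 did the withdrawal rats all lie on one side of the control rats, which was the case for 1.06% of all genes. In bulk tissue, a change in RNA per cell and a change in the number of cells that make it cannot be told apart.

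Nfe2l1 (chromosome 10, 84686762 to 84699313, Rnor_6.0) was at 236, 248 and 261 CPM in the lowest, median and highest control rat. In withdrawal rats these values were 256, 265 and 302 CPM. All 6 withdrawal rats were above the control mean and 4 of them were above every control rat. Its level was 7.49% higher in withdrawal in the fit (95% CI 3.15% to 12.02%, log2 fold change 0.10, SE 0.03, limma-voom q = 0.0636). By the exact permutation test of the 6 against 6 rats, p was 0.00649, the lowest of 30 such two-sided tests made on the 10 genes, of which 5 had a p under 0.05 (the smallest possible is 0.00216, and none is adjusted). The log2 fold change was 0.12 to 0.13 without surrogate variables and 0.09 to 0.11 in the fits that each left out 1 rat. The call was not made without surrogate variables (q = 0.337 by limma-voom, 0.304 by edgeR and 0.241 by DESeq2) nor in 7 of those 18 fits, namely without control rat 1, 3, 5 or 6 or withdrawal rat 1, 3 or 6, where q reached 0.194. Without withdrawal rat 5, which had the highest level, it was kept (q = 0.0813, limma-voom).

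Hmox1 (chromosome 19, 14508634 to 14515455) encodes heme oxygenase 1, the inducible enzyme that breaks down heme to biliverdin, iron and carbon monoxide. It had the largest fold changes of the 10 genes and the largest spread. Control rats were between 4.19 and 5.55 CPM (median 4.89), and ethanol rats between 3.75 and 5.35 CPM (median 4.67). The 6 withdrawal rats were at 12.2, 4.65, 5.09, 5.36, 7.50 and 12.3 CPM in the order of their numbers. Withdrawal rats 1, 5 and 6 thus exceeded every control and ethanol rat, and withdrawal rats 2, 3 and 4 were within the control range. The values rest on 121 to 508 read pairs per rat.

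The mean of Hmox1 was 7.85 ± 3.54 CPM in withdrawal and 4.89 ± 0.468 CPM in control rats (SD, n = 6). The fitted log2 fold change was 0.62 (SE 0.22, 95% CI 0.15 to 1.09), which did not pass the threshold (q = 0.142, limma-voom), and p was 0.0606 by exact permutation test. Against ethanol rats (4.57 ± 0.645 CPM), the log2 fold change was 0.79 (SE 0.26, 95% CI 0.24 to 1.33, limma-voom q = 0.135) and p was 0.0303 by exact permutation test, or 0.0606, 0.0758 and 0.0758 without ethanol rat 2, 3 or 4. All 6 withdrawal rats were above the ethanol mean and 4 were above every ethanol rat. Without surrogate variables, DESeq2 gave q = 0.0929 against control and 0.0185 against ethanol, edgeR gave q = 0.213 and 0.0832, and limma-voom gave q = 0.352 and 0.155, with log2 fold changes of 0.55 and 0.65. Leaving out withdrawal rat 6 lowered the log2 fold change to 0.33 against control and 0.38 against ethanol, and leaving out withdrawal rat 2 raised them to 0.80 (q = 0.0362, limma-voom) and 1.00 (q = 0.0367, limma-voom).

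The markers of vessels and perivascular macrophages were set beside Hmox1 rat by rat. Withdrawal rats 1 and 6, the highest for Hmox1, also had the highest summed levels of 6 endothelial markers among the 18 rats, 372 and 347 CPM, with all other rats between 249 and 334 CPM. Ethanol rats 2, 4 and 6 had endothelial sums of 334, 317 and 313 CPM with Hmox1 at 4.61, 3.88 and 4.73 CPM, and the median sum was 309 CPM in ethanol and 312 CPM in withdrawal rats. The endothelial sum was between 249 and 293 CPM in control, 271 and 334 CPM in ethanol, and 274 and 372 CPM in withdrawal rats, and 3 of its 6 genes were increased in withdrawal over control (q < 0.1, limma-voom). The 5 markers of perivascular macrophages, cells that take up and degrade heme, summed to 21.6 CPM in withdrawal rat 1 and 24.8 CPM in withdrawal rat 6. That sum was also high in ethanol rats 1 and 2, at 22.04 and 22.97 CPM, where Hmox1 was at 5.11 and 4.61 CPM. The sum ranged from 15.9 to 19.1 CPM in control, 15.9 to 22.97 CPM in ethanol and 12.4 to 24.8 CPM in withdrawal rats, with 0 of 5 genes DE in any comparison. Of the other markers, the choroid plexus sum was highest in withdrawal rat 6 (5302 CPM), as was the astrocyte marker Gfap (1530 CPM). The choroid plexus sum was 1187 CPM in withdrawal rat 1, and 5291 CPM in ethanol rat 1, where Hmox1 was at 5.11 CPM. None of these markers was at 0 in all rats, and their part in the level of Hmox1 was not tested. By index set, withdrawal rats 1 and 2 shared theirs with the ethanol rats, and they were at 12.2 and 4.65 CPM.

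Neither subunit gene of glutamate-cysteine ligase passed the threshold, and the difference between the pair was not tested. Gclc (chromosome 8, 85059051 to 85097471) was at 68.1, 72.2 and 78.8 CPM in the lowest, median and highest control rat, and at 73.6, 76.4 and 89.4 CPM in withdrawal. All 6 withdrawal rats were above the control mean, and 2 of them were above every control rat. Its log2 fold change was 0.11 (SE 0.05, limma-voom q = 0.220), with p = 0.0411 by exact permutation test, which was above 0.05 in 7 of the 12 tests that each left out 1 rat, at up to 0.0887. Leaving out withdrawal rat 1, the highest of the 18 rats, lowered the log2 fold change to 0.06. Gclm (chromosome 2, 225827504 to 225847876) had a log2 fold change of −0.02 (SE 0.05, limma-voom q = 0.857), and the 95% CI of the difference ran from −7.59% to 5.48%. Its withdrawal rats, at 23.5 to 28.1 CPM, lay within the range of the ethanol rats, and 3 of them were just below the lowest control rat.

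The remaining genes did not pass the threshold against control. Nfe2l2 (chromosome 3, 62497568 to 62525146) averaged 31.03 ± 2.02 CPM in the control group and 32.01 ± 4.20 CPM in withdrawal rats, with a 95% CI of −3.34% to 16.0%. Withdrawal rats 1 and 6 (36.5 and 37.9 CPM) were above all other rats for this gene, and withdrawal rat 4 (27.5 CPM) was below them. Its inhibitor Keap1 (chromosome 8, 22250518 to 22259868) was at 56.9 ± 3.91 and 57.9 ± 1.69 CPM, with a 95% CI of −5.49% to 8.08%. Txnrd1 (chromosome 7, 26946124 to 26984400) was at 71.7 ± 2.88 and 74.7 ± 2.81 CPM (95% CI −1.28% to 11.5%). Nqo1 (chromosome 19, 38422210 to 38437103) was at 10.1 ± 0.324 CPM in the control rats and 10.4 ± 1.91 CPM in withdrawal, where the rats ranged from 7.84 CPM in rat 4 to 13.5 CPM in rat 5, outside the range of the other groups on both sides. For Sod1 (chromosome 11, 30363282 to 30368858) the 95% CI was −3.81% to 10.002%. For Sod2 (chromosome 1, 47914757 to 47921587) it was −4.63% to 5.06%, the narrowest of these 6 genes.

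**Figure D2:**
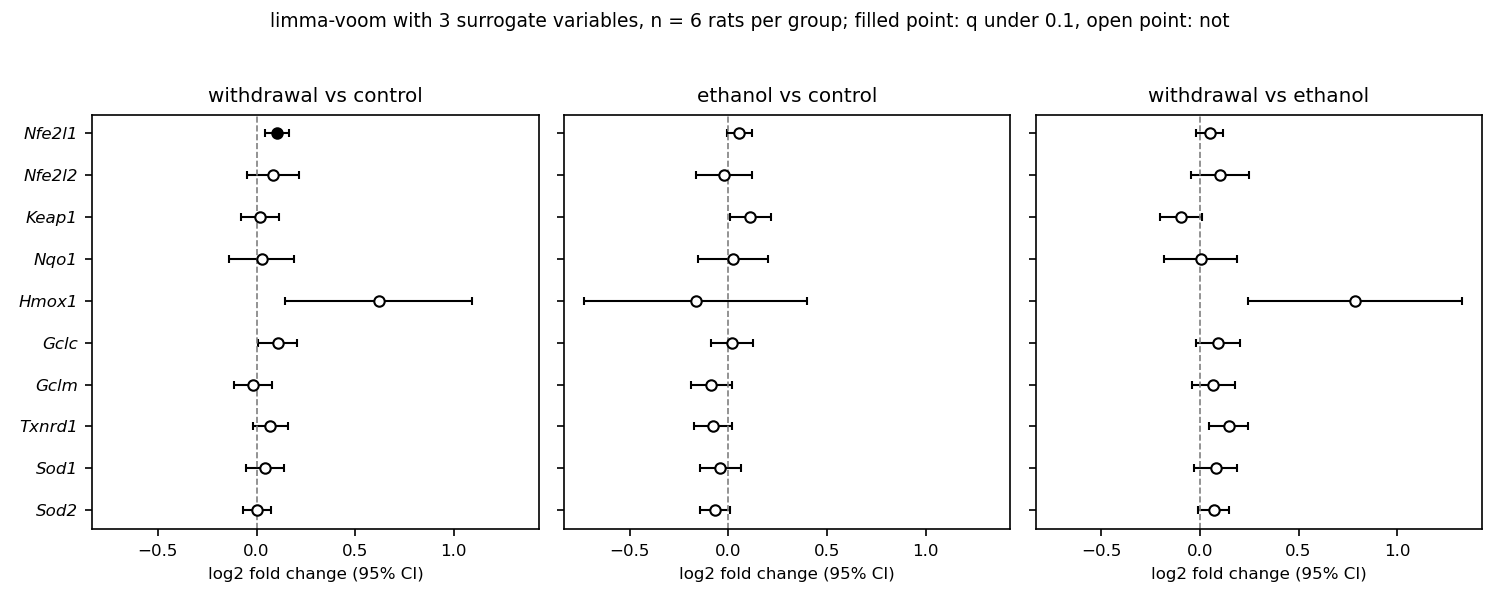
Log2 fold changes (horizontal axes) of the 10 genes with their 95% CI in the 3 comparisons, from limma-voom with 6 rats per group, where a filled point marks q under 0.1. Nfe2l1 in withdrawal vs. control is the only filled point, and Hmox1 has the widest intervals.

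The comparison of ethanol with control asks which genes differed while the rats were still on the ethanol diet. None of the 10 genes was DE by limma-voom, compared with 0.493% of all genes tested (0.336% increased and 0.157% decreased). Without surrogate variables limma-voom, edgeR and DESeq2 also called 0 of the 10, compared with 0.28% and 0.347% of all genes and, for DESeq2, 2.86% of the genes to which it gave a q. At an unadjusted p under 0.05 there was 1 of the 10 by each of the 3 tools, Keap1, compared with 12.5% of all genes by limma-voom. The median log2 fold change was −0.03, compared with 0.00 over all genes, and 4 of the 10 genes were above 0. The sign rested on the surrogate variables for Nfe2l2, Gclm and Sod1, which had values of −0.02, −0.09 and −0.04 with them and 0.06, 0.02 and 0.02 without them. No gene had groups that did not overlap, which was the case for 1.32% of all genes.

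Keap1 was at 51.3, 56.4 and 62.9 CPM in the lowest, median and highest control rat and at 56.7, 61.5 and 64.1 CPM in ethanol. The ethanol rats were shifted upward with much overlap, as 5 of 6 were above the control mean and 2 were above every control rat. The difference was 8.09% (95% CI 0.65% to 16.1%, log2 fold change 0.11, SE 0.05, limma-voom q = 0.353), with p = 0.0649 by exact permutation test. Nqo1 was at 9.56 to 10.5 CPM in the control rats and 9.89 to 11.8 CPM in ethanol rats, with medians of 10.1 and 10.7 CPM. The exact permutation test of these levels gave p = 0.0411 (0.0801 without ethanol rat 1, and above 0.05 in 9 of the 12 tests that each left out 1 rat), whereas the fit gave a log2 fold change of 0.02 (SE 0.08, limma-voom q = 0.941) with surrogate variables and 0.09 without. Hmox1, Txnrd1, Gclm and Sod2 had log2 fold changes of −0.17, −0.08, −0.09 and −0.07, with q between 0.452 and 0.848 by limma-voom. For Hmox1 the 95% CI ran from −39.7% to 31.8%, the widest of the 10 genes.

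The comparison of withdrawal with ethanol asks what changed in the 24 h after ethanol was removed, and it uses the same ethanol and withdrawal rats as the comparisons above. None of the 10 genes was DE by limma-voom, compared with 2.89% of all genes tested (1.29% increased and 1.6% decreased), or without surrogate variables, compared with 3.48%. At an unadjusted p under 0.05 there were 2, Hmox1 and Txnrd1, compared with 16.9% of all genes, and these were also the 2 under 0.05 by edgeR and by DESeq2 without surrogate variables. Of them edgeR called 1, Hmox1, compared with 3.82% of all genes, and DESeq2 called both, compared with 8.96% of the genes to which it gave a q. The log2 fold change was above 0 for 9 of the 10 genes (median 0.07, compared with 0.00 over all genes), Keap1 being the exception at −0.10. Without surrogate variables it was below 0 also for Nfe2l2, Gclm and Nqo1 (−0.03, −0.04 and −0.07).

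Txnrd1, which keeps thioredoxin reduced, was at 63.6, 66.5 and 75.3 CPM in the lowest, median and highest ethanol rat and at 71.0, 74.1 and 78.2 CPM in withdrawal. All 6 withdrawal rats were above the ethanol mean, and ethanol rat 5 was the only ethanol rat within the range of the withdrawal rats. The difference was 10.7% (95% CI 3.32% to 18.6%, log2 fold change 0.15, SE 0.05), with q = 0.130 by limma-voom and p = 0.0152 by exact permutation test. With no surrogate variables the q of limma-voom was 0.104, that of edgeR 0.103 and that of DESeq2 0.0385. Leaving out ethanol rat 5 gave a log2 fold change of 0.19 (q = 0.0228, limma-voom), and the call was also made without withdrawal rat 2 or 4. Ethanol rats were lower than control rats for this gene as well, at 67.8 ± 4.21 against 71.7 ± 2.88 CPM, which did not pass the test (q = 0.510, limma-voom).

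The highest of the 18 rats was a withdrawal rat for 8 of the 10 genes, Gclm (ethanol rat 1) and Keap1 (ethanol rat 2) being the others, and over all genes tested it was a withdrawal rat for 41.7%. The lowest rat was a control rat for 4 genes, an ethanol rat for 4 and a withdrawal rat for 2, spread over 7 rats, and over all genes it was a withdrawal rat for 42.4%. These shares are a description, with no test. Withdrawal rat 5 was highest for Nfe2l1, Nqo1, Sod1 and Sod2, withdrawal rat 1 for Gclc and Txnrd1, and withdrawal rat 6 for Nfe2l2 and Hmox1. Withdrawal rat 5 was at 155 CPM for Sod1 and 190.0 CPM for Sod2, against 139 and 172 CPM in the highest control rat. This is the rat with the low level of hippocampus markers, and the part of its tissue makeup in these values was not tested. In ethanol rat 1, which had the high level of thalamus markers, Gclm was the highest of all 18 rats (30.6 CPM). Nfe2l1, Nfe2l2, Nqo1, Sod1 and Sod2 were there the highest of the 6 ethanol rats (295, 35.6, 11.8, 145 and 164 CPM). Without this rat the differences of mean log2 CPM between ethanol and control went from 0.02 to −0.03 for Gclm and from 0.02 to −0.02 for Sod1. They went from 0.09 to 0.06 for both Nfe2l1 and Nqo1, from 0.06 to 0.03 for Nfe2l2 and from −0.04 to −0.06 for Sod2. In the fits with surrogate variables the log2 fold changes of Gclm, Nfe2l1, Nqo1, Sod1 and Sod2 moved by less than 0.01. The part of the tissue makeup of this rat in the levels was not tested.

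**Figure D3:**
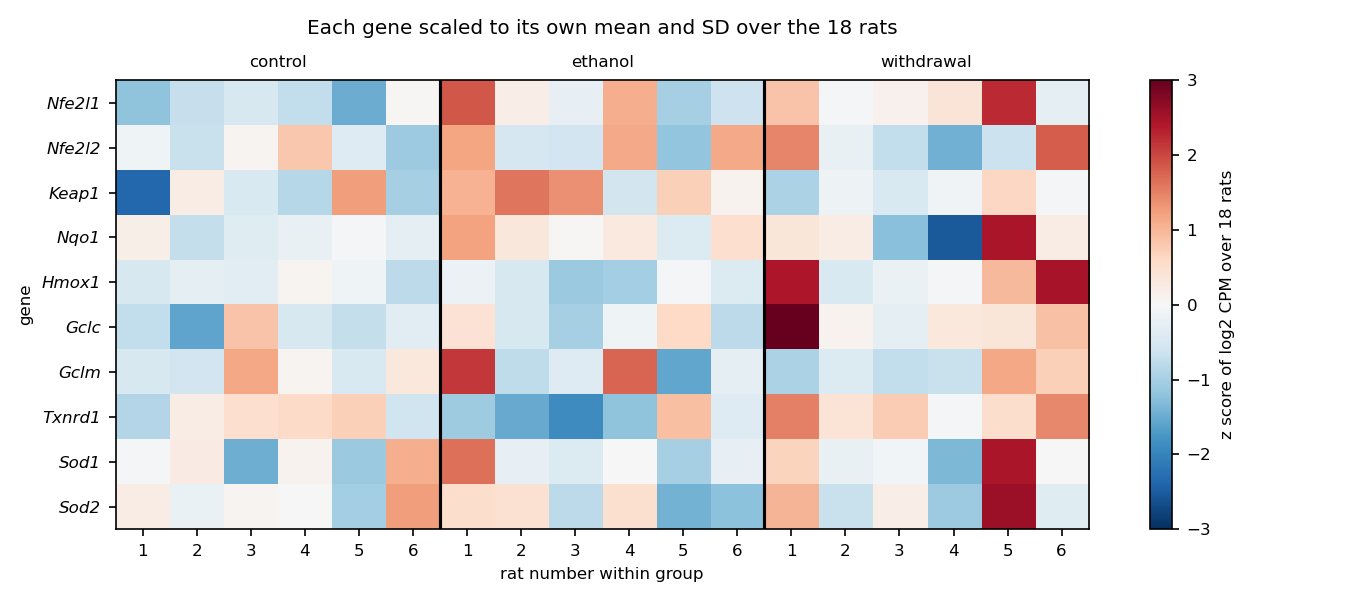
Each gene's log2 CPM as a z score over the 18 rats (colour), with the genes in rows and the rats in columns by group. Withdrawal rat 5 is dark red for Nfe2l1, Nqo1, Sod1 and Sod2, withdrawal rats 1 and 6 for Hmox1, and withdrawal rat 1 for Gclc.

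The other genes of the pathways were 104 genes in 6 lists made by function, of which 97 were tested. The lists were made with earlier results of these data known. Between withdrawal and control 8 of the 97 were DE, 4 in each direction, which is 8.25% compared with 5.41% of all genes. Between ethanol and control 2 of the 97 were DE, both increased (2.06% compared with 0.493% of all genes DE and 0.336% increased). Between withdrawal and ethanol 1 was increased and 4 were decreased (5.15% compared with 2.89%). In the same order of comparisons and without surrogate variables, limma-voom called 0, 2 and 9 (0.23%, 0.28% and 3.48% of all genes) and edgeR 1, 2 and 9 (0.185%, 0.347% and 3.82% of all genes). DESeq2 called 5, 7 and 13, and its shares of 2.54%, 2.86% and 8.96% are of the 17137, 15067 and 16101 genes to which it gave a q. At an unadjusted p under 0.05 there were 28, 17 and 19 of the 97 by limma-voom, compared with 19.8%, 12.5% and 16.9% of all genes. Leaving out 1 rat moved the first number to between 0 (without withdrawal rat 6) and 17 (without withdrawal rat 2), the second to between 0 (without control rat 4 or 6 or ethanol rat 3) and 5, and the third to between 0 (without ethanol rat 2 or 3 or withdrawal rat 6) and 17 (without ethanol rat 5). The number of all genes called moved with it, to 23 without withdrawal rat 6 and 1948 without withdrawal rat 2 in the first comparison, to 0, 2 and 6 without control rat 4, control rat 6 and ethanol rat 3 in the second, and to 0 without ethanol rat 2 or 3 or withdrawal rat 6 and 1856 without ethanol rat 5 in the last.

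The partners and regulators of NRF2 had 2 of 16 genes increased in withdrawal over control and none decreased, compared with 2.87% and 2.54% of all genes. Limma-voom without surrogate variables called none of the 16, nor any gene of the other 5 lists, in this comparison. Maff, which encodes a small MAF protein that pairs with NRF2, had the largest change of all the pathway genes. It was at 0.945 to 1.93 CPM in the control rats and 0.991 to 2.52 CPM in ethanol rats. The withdrawal rats were at 12.7, 1.88, 3.44, 2.71, 3.79 and 6.13 CPM in the order of their numbers, and 5 of 6 were above every control rat. The log2 fold change over control was 1.81 (SE 0.41, limma-voom q = 0.0339), and over ethanol 1.48 (SE 0.43, limma-voom q = 0.1003), just outside the threshold. Withdrawal rats 1 and 6 were the highest for both Maff and Hmox1, and the log2 fold change over control was 1.59 without withdrawal rat 6 (q = 0.149, limma-voom). Without surrogate variables it was 1.72 by limma-voom, which did not pass (q = 0.126), while edgeR (2.02, q = 0.069) and DESeq2 (2.03, q = 0.000308) called it. Rbx1, the RING subunit of the ligase that KEAP1 serves, was increased from 46.0 ± 1.46 to 51.3 ± 2.27 CPM, with all 6 withdrawal rats above every control rat (log2 fold change 0.15, SE 0.05, limma-voom q = 0.0821, 0.205 without surrogate variables).

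**Figure D4:**
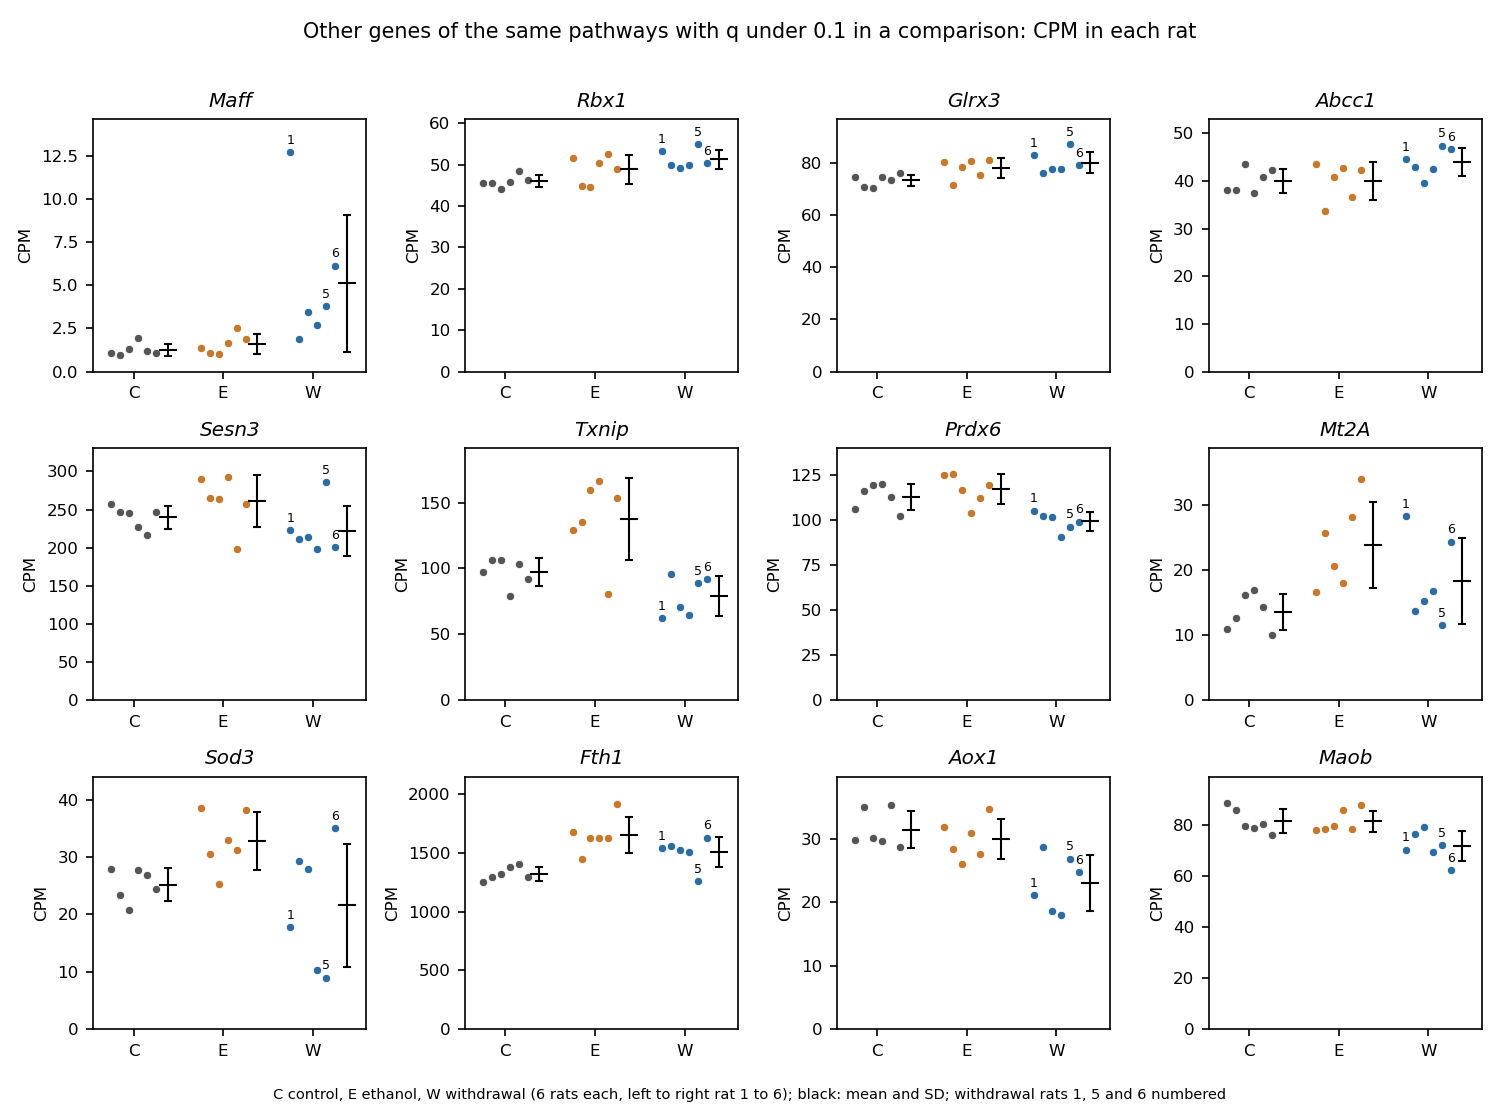
CPM (vertical axes, from 0) in each rat of the 12 other pathway genes with q under 0.1 in a comparison, with groups, mean and SD drawn as in the plot of the 10 genes. Maff is high in withdrawal rats 1 and 6, the ethanol rats lie above the control rats for Fth1, and Sod3 is low in withdrawal rats 4 and 5.

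In the glutathione system 1 of 27 genes was increased in withdrawal over control, none in ethanol over control, and 1 in withdrawal over ethanol, compared with 2.87%, 0.336% and 1.29% of all genes. The first was Glrx3, a glutaredoxin, at 73.2 ± 2.23 CPM in the control group and 80.0 ± 4.14 CPM in withdrawal rats, all of which were above every control rat (log2 fold change 0.12, SE 0.04, limma-voom q = 0.088). The other was Abcc1, a transporter that exports glutathione conjugates, with a log2 fold change of 0.22 over ethanol (SE 0.06, limma-voom q = 0.0675, 0.259 without surrogate variables). The thioredoxin and peroxiredoxin system had 2 of 19 genes decreased in withdrawal relative to control, Sesn3 and Prdx6, and 3 decreased relative to ethanol, Sesn3, Txnip and Prdx6, compared with 2.54% and 1.6% of all genes. Sesn3, a stress-induced sestrin, had log2 fold changes of −0.16 and −0.21 (limma-voom q = 0.0784 and 0.062), and of −0.12 and −0.23 without surrogate variables (q = 0.665 and 0.199, limma-voom). Prdx6, a peroxiredoxin that also acts on oxidized phospholipids, was at 113 ± 7.24, 117 ± 8.33 and 99.5 ± 5.15 CPM in control, ethanol and withdrawal rats. Its withdrawal rats were below the lowest control rat in 4 of 6 cases and below the lowest ethanol rat in 5 of 6 (log2 fold changes −0.17 and −0.24, q = 0.0965 and 0.0703 by limma-voom, 0.206 and 0.0527 without surrogate variables). Txnip, which binds and inhibits thioredoxin, was at 79.3 to 106.4 CPM in the control rats, 81.0 to 167 CPM in ethanol and 62.1 to 96.0 CPM in withdrawal rats. The ethanol rats other than rat 5 were above every control and withdrawal rat, and control and withdrawal rats overlapped. Its log2 fold change in withdrawal over ethanol was −0.65 (SE 0.16, limma-voom q = 0.0639), the largest decrease among the pathway genes called.

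Superoxide and peroxide removal had 1 of 6 genes increased in ethanol over control, Mt2A, and 1 decreased in withdrawal relative to ethanol, Sod3, compared with 0.336% and 1.6% of all genes. Mt2A, a metallothionein, was at 10.04 to 16.9 CPM in the control rats and 16.6 to 34.03 CPM in ethanol rats, of which 5 of 6 were above every control rat (log2 fold change 0.92, SE 0.19, limma-voom q = 0.0766, 0.197 without surrogate variables). Metallothionein genes are similar in sequence to one another, and reads with more than one mapping place were left out of the counts. Sod3, the extracellular superoxide dismutase, was at 32.8 ± 5.02 CPM in ethanol and 21.6 ± 10.8 CPM in withdrawal, with 10.4 CPM in rat 4 and 8.98 CPM in rat 5. These are the rats that nearly lacked choroid plexus markers, whose sum was 1076 to 2253 CPM in control, 1422 to 5291 CPM in ethanol and 31.7 to 5302 CPM in withdrawal rats, and the part of this in Sod3 was not tested. The log2 fold change was −0.31 (SE 0.08, limma-voom q = 0.0779) with surrogate variables and −0.74 (q = 0.148 by limma-voom) without them.

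Of 17 genes of heme, iron and NADPH supply, 1 was increased both in withdrawal and in ethanol over control, Fth1, compared with 2.87% and 0.336% of all genes. Fth1 encodes the heavy chain of ferritin, the protein that stores iron, and is a target of NRF2. It was at 1250.4 to 1408 CPM in the control rats and 1450.3 to 1917 CPM in ethanol rats, so that these groups did not overlap (log2 fold change 0.29, SE 0.05, limma-voom q = 0.0356, 0.0782 without surrogate variables). Withdrawal rats were at 1511 to 1629 CPM except for rat 5 at 1260.5 CPM (log2 fold change over control 0.22, SE 0.04, limma-voom q = 0.0218, 0.280 without surrogate variables). The summed level of the red blood cell markers moved in the opposite direction, at 127 to 225 CPM in control, 37.0 to 96.1 CPM in ethanol and 41.5 to 151 CPM in withdrawal rats. Its part in the level of Fth1 was not tested. Fth1 has processed copies in the genome, and reads shared with them were not counted. Among 12 genes of sources of reactive oxygen, 2 were decreased in withdrawal relative to control (2.54% of all genes), the aldehyde oxidase gene Aox1 (log2 fold change −0.44, SE 0.10, limma-voom q = 0.0382) and the monoamine oxidase gene Maob (−0.19, SE 0.06, limma-voom q = 0.089). All 6 withdrawal rats were below every control rat for Aox1, and 4 of 6 were for Maob. The cytochrome P450 gene Cyp2e1 was listed among these sources but had too few reads to be tested.

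In the 18 fits that each left out 1 rat, the number of all genes called changed as given above, and calls of pathway genes were lost with it. In withdrawal vs. control, Fth1 and Aox1 lost their call only without withdrawal rat 6 (q = 0.103 and 0.149 by limma-voom), where their log2 fold changes were 0.25 and −0.45, compared with 0.22 and −0.44 with all rats. In ethanol vs. control, Fth1 lost it without control rat 4 or 6 or ethanol rat 3, and Mt2A kept it in 10 of 18 fits. In withdrawal vs. ethanol, Abcc1 and Sesn3 lost it without ethanol rat 2 or 3 or withdrawal rat 6, and Txnip and Prdx6 without those and also without ethanol rat 6 or withdrawal rat 3. Sod3 kept it in 8 of 18 fits, with log2 fold changes of −0.26 without withdrawal rat 4 (q = 0.149, limma-voom), −0.31 without withdrawal rat 5 (q = 0.0576, limma-voom) and −0.18 without withdrawal rat 6 (q = 0.517, limma-voom). Rbx1, Sesn3 and Maob in withdrawal vs. control kept it in 8 of 18 fits each, with a log2 fold change for Maob of −0.11 without withdrawal rat 6 (q = 0.399, limma-voom), and Glrx3 and Prdx6 in 6 of 18. The direction was the same in all of these fits.

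For each of the 10 genes, the gene with the most similar log2 CPM over the 18 rats was taken from all genes tested. Pearson's r with that gene was between 0.764 for Keap1 with Ppp6r2 and 0.946 for Sod2 with Vapb, and none of the genes so found was another of the 10. For Nfe2l1 it was Lpgat1 (r = 0.911, Spearman's rho = 0.882), for Txnrd1 it was Gdi2 (r = 0.909, rho = 0.928), and for Hmox1 it was Pla1a (r = 0.905, rho = 0.756). Without the 2 rats farthest from the median of the gene, r was lower for all 10, at 0.793 for Nfe2l1, 0.871 for Txnrd1 and 0.641 for Hmox1, the last being the lowest of the 10 and 0.892 for Sod2 the highest. These values describe the same 18 libraries, with their shared groups and tissue makeup, and each is the highest of many.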

How the data were processed

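Per the labels, total RNA of the hippocampus was made into stranded TruSeq mRNA libraries, and the RNA integrity numbers were above 8. Alignment to Rnor_6.0 was done by the authors with STAR 2.5.2a, and the deposited values are raw counts of each gene by featureCounts 1.5.0, 1 table per rat, without normalization. Group and replicate number came from the sample labels. Of the 38445 gene identifiers, 29322 were named from RefSeq (assembly GRCr8, used for names and promoters only) and 9123 had no match. Coordinates are those of the deposited files. Promoters and files thus use different builds.

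Counts were normalized with TMM (edgeR 4.0.16). Genes above 0.5 CPM in 1 rat or more were fitted by limma-voom (limma 3.58.1, R 4.3.3) over all 3 groups with 3 surrogate variables (sva 3.50.0, prior count of 2 for log2 CPM). All p are two-sided, and q is the Benjamini-Hochberg value over all 17853 genes within a comparison. Single levels were compared on log2(CPM + 0.5) by exact permutation over all splits of 6 against 6 rats. Only the limma-voom fit was also run on simulated counts, which held no tissue or batch differences, and no result here rests on that run. No pair of rats within a group was a repeated library. The labels do not say whether rats of the same replicate number belong together, and each rat is a different animal. The study states that its rats were pair fed, without saying which rats formed a pair. Alternatives were 0, 2 or 4 surrogate variables, edgeR's quasi-likelihood test, DESeq2 1.42.0, RLE size factors, no filter, only the groups compared, a replicate block, leaving out each rat, and q under 0.05.

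The 10 genes and all lists were chosen with earlier results of these data known. The lists were NRF2 partners and regulators, the glutathione system, the thioredoxin and peroxiredoxin system, superoxide and peroxide removal, heme, iron and NADPH supply, sources of reactive oxygen, and cell type markers. Named in the text were the 10 genes, up to 3 genes with the smallest q under 0.1 per pathway list and comparison, the cell type markers with q under 0.1, and the most similar gene to each of the 10. Lct, Zbtb20 and Cyp2e1 are named for their low levels. Python 3.11.15 with pandas 2.3.3, numpy 2.4.6, scipy 1.17.1 and matplotlib 3.10.9 was used for summaries and plots.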

Additional observations from a re-analysis of the deposited data

Results flagged for a closer look

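Single rats far from the other 5 of their group were looked for in the 10 genes and the 12 pathway genes named, in 66 groups, and 5 were found by Dixon's criterion. Chance alone flags about 1 in 20 groups. For 2 of the 10 genes a rat was so separated: Gclc in withdrawal rat 1, at 89.4 CPM against 73.6 to 78.9 CPM in the other withdrawal rats, and Sod1 in ethanol rat 1, at 145 CPM against 117 to 127 CPM in the other ethanol rats. Ethanol rat 1 also had the highest sum of thalamus markers, 1264 CPM against 209 to 740 CPM in the other 17 rats, and the part of this in its Sod1 level was not tested. The pathway genes gave 3 more. Withdrawal rat 5 was low for Fth1 (1260.5 CPM against 1511 to 1629 CPM) and high for Sesn3 (286 CPM against 198 to 223 CPM). Control rat 4 was high for Maff, at 1.93 CPM against 0.945 to 1.29 CPM.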

How the results depend on the processing

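Over 27 alternatives to each of the 30 values of the 10 genes, 736 of the alternative values kept their direction and their side of the threshold, 13 newly passed it, 11 no longer passed it and 50 changed sign. Only Nfe2l1 in withdrawal vs. control was called with 3 surrogate variables, so all 11 losses fell among the 27 alternatives of that 1 value. In withdrawal vs. control the number of the 10 genes DE was 0 with no surrogate variables, by edgeR, with only the groups compared and at q under 0.05, and 2 with the replicate block (Nfe2l1 and Hmox1, q = 0.0831 and 0.0792 by limma-voom). In withdrawal vs. ethanol it was 2 by DESeq2 and 1 by edgeR. Leaving out 1 rat gave 0 to 2 genes in both. Of the pathway genes, withdrawal vs. control had 3 with 2 surrogate variables, 3 with no filter, 3 at q under 0.05, 5 by DESeq2, 5 with the replicate block, 1 by edgeR and 0 with no surrogate variables. Ethanol vs. control had 1 with 2 surrogate variables, 1 with no filter, 1 at q under 0.05, 5 with 4 surrogate variables and 7 by DESeq2. Withdrawal vs. ethanol had 2 with 2 and 11 with 4 surrogate variables, 13 by DESeq2, 9 by edgeR, 9 with none, 1 with no filter, 1 with the replicate block, and 0 with only the groups compared or at q under 0.05. Leaving out 1 rat gave 0 to 17, 0 to 5 and 0 to 17. The number of all genes called also moved. In withdrawal vs. control it was 965, and 601 with 2, 1358 with 4 and 41 with no surrogate variables. There it was also 490 with no filter, 1081 with the replicate block, 1229 with only the groups compared, 33 by edgeR and 435 by DESeq2. In ethanol vs. control it was 88, and 70 with 2, 225 with 4 and 50 with no surrogate variables. There it was also 9 with no filter, 33 with the replicate block, 28 with only the groups compared, 62 by edgeR and 431 by DESeq2. In withdrawal vs. ethanol it was 516, and 275 with 2 and 942 with 4 surrogate variables, 1443 by DESeq2, 682 by edgeR, 621 with none, 192 with no filter, 94 with the replicate block and 0 with only the groups compared. Of the 30 exact permutation tests, 5 had p under 0.05, and 3 to 7 when 1 rat was left out, an alternative chosen after seeing the data. The cause of these changes was not tested, except that fewer rats or genes entered some fits. Same-numbered rats had correlated deviations (over 0.1) in 3 of 6 pairs of ethanol with control, 1 of 6 of withdrawal with ethanol and 0 of 6 of withdrawal with control (−0.325 to 0.383 over all pairs), with 3, 1 and 0 rats closest to their own number, and not every pair was over 0.1, so the replicate block is a check on the number alone.

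None of the values that changed sign was called, and their size with 3 surrogate variables reached 0.10 (Nfe2l2 in withdrawal vs. ethanol) and −0.09 (Gclm in ethanol vs. control). The log2 fold changes follow. By DESeq2, by edgeR and with no surrogate variables, Nfe2l2 was 0.063, 0.065 and 0.063 (ethanol vs. control) and −0.019, −0.020 and −0.026 (withdrawal vs. ethanol), Gclm 0.023, 0.025 and 0.018, and −0.042, −0.043 and −0.037, and Sod1 0.016, 0.018 and 0.018 (ethanol vs. control). Nqo1 in withdrawal vs. ethanol was −0.047, −0.048 and −0.067, and −0.032 with 4 surrogate variables, −0.00084 with no filter and −0.010 with only the groups compared. In withdrawal vs. control, Gclm was 0.0011 with 2 surrogate variables and Sod2 was −0.00098 with only the groups compared. Leaving out 1 rat gave ranges of −0.025 to 0.037 (Gclc), −0.083 to 0.013 (Nfe2l2) and −0.020 to 0.052 (Nqo1) in ethanol vs. control, −0.053 to 0.014 (Gclm), −0.011 to 0.045 (Keap1), −0.035 to 0.073 (Nqo1), −0.0025 to 0.065 (Sod1) and −0.015 to 0.019 (Sod2) in withdrawal vs. control, and −0.072 to 0.036 (Nqo1) in withdrawal vs. ethanol.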

Other observations

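The markers of other cells in the same libraries moved as follows (q under 0.1, limma-voom, 3 surrogate variables). Of 6 astrocyte markers, Gfap, an intermediate filament protein of reactive astrocytes, was increased in withdrawal over control (log2 fold change 0.54, SE 0.15) and over ethanol (0.74, SE 0.17), and the gap junction gene Gja1 was decreased in withdrawal relative to control (−0.13, SE 0.04). Of 6 endothelial markers, Pecam1, Flt1 and Vwf were increased in withdrawal over control by 0.34, 0.28 and 0.33 on the log2 scale. Of 6 neuron markers, Gad2, an enzyme of GABA synthesis, was increased in withdrawal over ethanol (0.35, SE 0.08), and of 5 hippocampus markers tested, Prox1, a transcription factor of dentate granule cells, was decreased in withdrawal relative to control (−0.26, SE 0.08). The globin genes Hbb, Hba-a1 and Hba-a2 and the heme synthesis gene Alas2 were decreased in both comparisons with control, with log2 fold changes between −1.64 and −1.36. None of the markers of oligodendrocytes, microglia, perivascular macrophages, choroid plexus or thalamus was called in any of the 3 comparisons.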
